A study of Mus musculus with 20 samples.

Results

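Lumbar and sacral cells of the same male mice, sorted to enrich Trpv1 neurons, were compared gene by gene. The comparison used the 10 libraries whose titles mark male donors, 5 lumbar (L4-L5) and 5 sacral (L6-S1), of 20 libraries in the series. A lumbar and a sacral library were paired when their titles carried the same 2 animal numbers, which gave 5 pairs, called donors M1 to M5 here. Each library came from cells sorted from dorsal root ganglia (DRG) of adults aged 6 to 8 weeks. These mice were homozygous for Trpv1tm2Bbm, an allele that places alkaline phosphatase and nuclear beta-galactosidase under the Trpv1 gene. Both levels carried this allele, and neither received a treatment. Dissociated cells were loaded with a fluorogenic beta-galactosidase substrate. Of the cells positive for its product, the brightest 15% were sorted. The libraries of both levels nevertheless held glial and other non-neuronal transcripts, which are described below. The study describes 5 male mice, whereas each title holds 2 animal numbers, and whether ganglia of both animals were pooled is not given in the sources used here. Genes entered when their mean log2 RPKM was above -1 at either level with at least 3 values at each. RPKM is reads per kilobase of gene and per 1e6 reads. The rule kept 15753 of the 37620 genes listed, and 15654 with at least 3 complete pairs were tested. All differences are lumbar minus sacral on the log2 scale, so that a negative value means a higher relative level in the sacral libraries. Below, higher in sacral or lumbar DRG refers to the cells sorted from ganglia of that level, not to whole ganglia.

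DRG neurons carry signals from the body to the spinal cord, and Trpv1, the capsaicin and heat receptor, marks most of those that sense noxious heat and inflammation. Neurons of L4-L5 ganglia supply mainly the hindlimb through the sciatic nerve. Neurons of L6-S1 ganglia also supply the bladder, distal bowel and genital organs through the pelvic nerve. Positional identity along this axis is kept by Hox transcription factors, which remain expressed in adult ganglia.

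The male libraries held 43999022 to 66588573 reads on genes and between 21045 and 22507 genes with a value. Eif2s3y, Ddx3y, Kdm5d and Uty, which lie on the Y chromosome, had a value in all 10 male libraries, and Xist had at most 26 reads in any of them. Trpv1 was above 3 log2 RPKM in every library. Libraries of both levels also held transcripts of other cells. The 15 satellite glial cell markers had a mean level of 5.60 to 6.53 in lumbar and 4.74 to 5.41 in sacral libraries, and this mean was higher in lumbar DRG in all 5 pairs, by 0.50 in M1 and by 1.49 in M2. Genes of the mitochondrial genome took 45.0% to 60.3% of reads in lumbar libraries and 25.2% to 36.9% in sacral libraries. Their share was higher in lumbar DRG by 22.7 ± 7.16 percentage points (SD, n = 5 pairs, exact sign-flip test, two-sided p = 0.0625, the smallest that 5 pairs allow). The gap was narrowest in M1, at 11.9 points, and widest in M5, at 30.3 points. Library numbers in the titles also run in separate blocks for the levels. These blocks coincide with level, so their part in the differences described here cannot be told apart from it. Fits with the mitochondrial share or the glial marker mean as a covariate are given below, although neither measure overlaps between the levels. In sorted populations such as these, fewer cells of a type and less RNA per cell cannot be told apart.

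**Figure D1:**
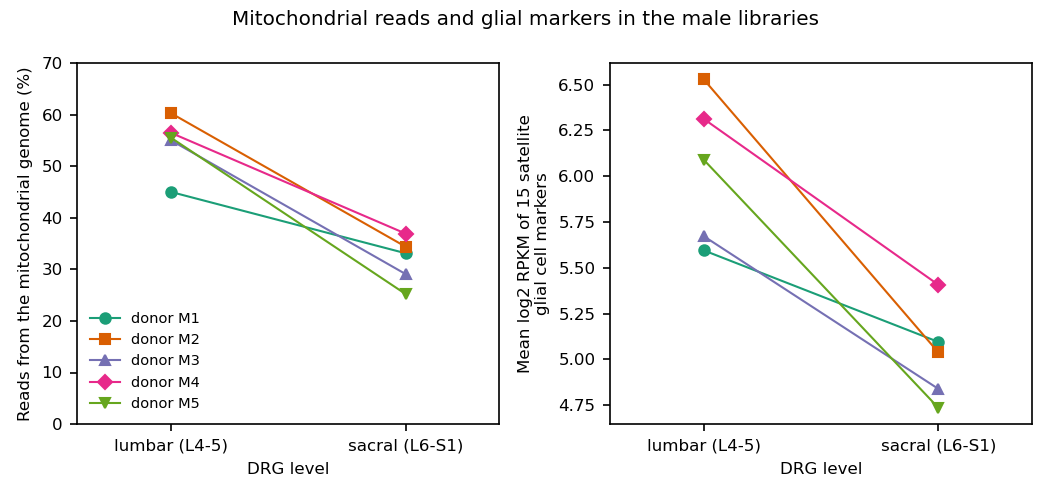
Mitochondrial share of reads (left, percent) and mean log2 RPKM of 15 satellite glial cell markers (right) in each male library, with a line joining the lumbar and sacral library of each donor. Both lines fall from lumbar to sacral in all 5 donors, and the mitochondrial shares of the levels do not overlap (45.0% at the lowest lumbar against 36.9% at the highest sacral library).

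Of the 15654 genes tested, 4412 (28.2%) passed an adjusted p of 0.05 in the paired limma test, 2798 (17.9%) with more transcript in sacral and 1614 (10.3%) with more in lumbar DRG. Without donor M3, M4 or M5 the count was 2745, 2714 or 2843. With the mitochondrial share or the glial marker mean as a covariate, which leaves 3 residual degrees of freedom, no gene was called (0 of 15654, against 402 and 518 genes at an unadjusted p under 0.05). The 2 directions differed in size. Genes higher in sacral DRG had a median absolute difference of 0.60, and genes higher in lumbar DRG one of 0.99. Differences beyond 1 on the log2 scale numbered 795 higher in lumbar and 260 higher in sacral DRG. Differences beyond 2 numbered 94 and 35. The balance of directions depended on how libraries were scaled to each other. In the deposited table the median of every one of the 20 libraries is 0.93 log2 RPKM. Of called genes, 63.4% were higher in sacral DRG with the deposited scaling, 47.2% when each library was centred by its trimmed mean, 50.8% after quantile normalization, 50.2% with voom and TMM on reads, 90.0% when scaled to total reads, and 31.0% when scaled to reads outside the mitochondrial genome. These scalings moved the median difference of all genes from -0.12 to between -0.49 and 0.10. In all 5 of these scalings and in the main test, 1938 genes were called in the same direction, 1173 higher in sacral and 765 higher in lumbar DRG. The number of calls higher in sacral or lumbar DRG below is from the deposited scaling, beside that all-gene median of -0.12. Each such count stands beside all-gene shares of 17.9% called higher in sacral and 10.3% called higher in lumbar DRG.

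Where a gene stood in expression went with its direction. Among 2604 genes with a mean level below 0 log2 RPKM, 20.7% of the calls were higher in sacral DRG, whereas among 1943 genes between 4 and 6 the share was 83.6% and among 458 genes at 6 or above 76.2%. The median difference was 0.22 in the lowest, -0.25 in the class from 4 to 6 and -0.28 in the highest. The plot of level against difference shows both wings. Of 188 snoRNA genes tested, 55 were higher in lumbar and 3 higher in sacral DRG, with a median difference of 0.93 (30.9% called). The 22 mitochondrial tRNA genes included 12 called, all of them higher in lumbar DRG (54.5% called, against 28.2% of all genes). The 171 miRNA genes had 24 calls higher in lumbar and 16 in sacral DRG (23.4% called, against 28.2% of all genes) and a median of 0.0085. Protein-coding genes had 2538 calls higher in sacral and 1293 higher in lumbar DRG among 12919 tested (29.7% called, against 28.2% of all genes).

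**Figure D2:**
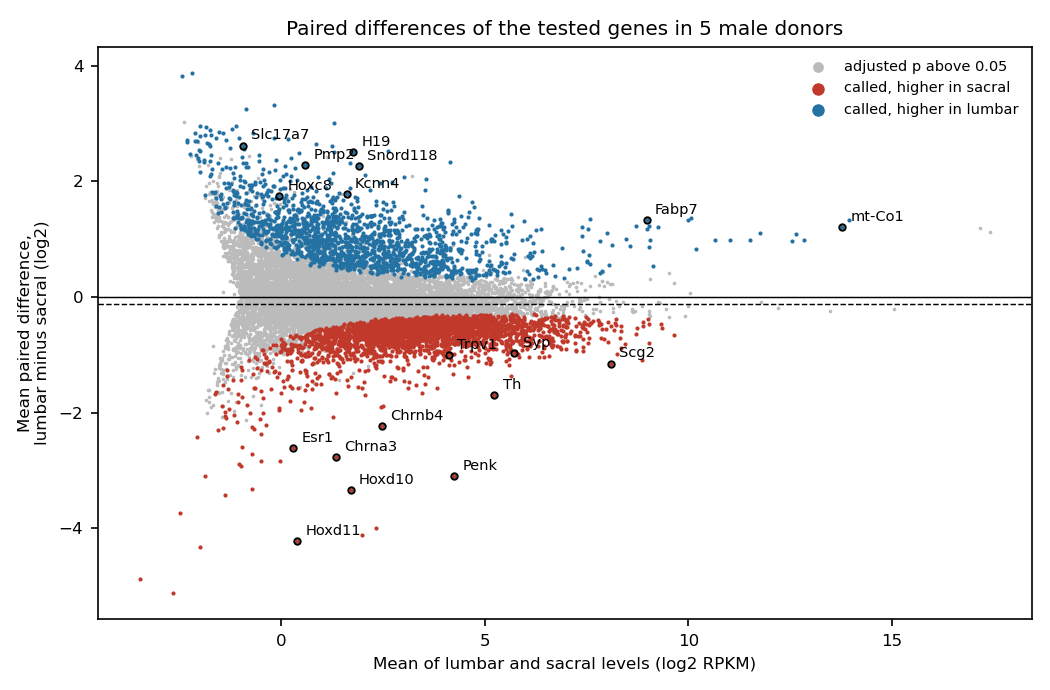
Mean paired difference (log2, lumbar minus sacral) against mean level (log2 RPKM) of the 15654 genes tested in 5 male pairs, with called genes in colour (adjusted p of at most 0.05, limma) and named genes circled. The dashed line is the median of all genes, -0.12, and called genes above 4 log2 RPKM lie mostly below 0.

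The 5 pairs moved together to different degrees. Over the 15282 genes with 5 complete pairs, 3885 (25.4%) were higher in sacral DRG in every pair and 1953 (12.8%) were higher in lumbar DRG in every pair. Of 4329 called genes with 5 complete pairs, 3938 had the same sign in all 5. Correlations of the paired differences across genes, between single donors, lay from 0.50 to 0.54 among M2 to M5, and from 0.35 to 0.36 between M1 and the others. These are over genes, which are not independent replicates, and each pair shares the scaling of its libraries. M1 also had the smallest spread of differences (SD over genes 0.52, against 0.73 to 0.92 in the other 4 donors). The median absolute difference of the called genes was 0.35 in M1 and 0.97 in M5. Donor M1 was also the pair with the narrowest gap in mitochondrial share and in glial markers.

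The 10 named genes with the largest differences toward sacral DRG included homeobox genes, a neuropeptide precursor, subunits of one nicotinic receptor and a steroid receptor. Lumbar and sacral values of all 10 did not overlap, which was true of 1917 (12.2%) of the genes tested. Hoxd11 (ENSMUSG00000042499, chromosome 2 of mm9, 74517449 to 74525798), a homeobox gene of the posterior end of its cluster, led them. Its levels in M1 to M5 were -0.69, -4.30, -3.99, 0.12 and 0.25 log2 RPKM in lumbar and 2.61, 2.19, 2.27, 2.68 and 2.75 in sacral libraries. The sacral values lay close together while lumbar values of M2 and M3, from as few as 11 reads, lay far below the other 3. The mean paired difference was -4.22 (SE 0.58, adjusted p = 0.0019), an 18.7-fold higher geometric mean in sacral DRG. Its neighbour Hoxd10 (ENSMUSG00000050368, 74529147 to 74533163) was at 0.83, -1.30, -1.13, 0.89 and 0.95 in lumbar and at 3.38, 3.37, 3.11, 3.39 and 3.65 in sacral libraries. The same 2 donors again had the lowest lumbar values. Hoxd10 differed by -3.34 (SE 0.32, adjusted p = 0.00082). Both genes share exons with Gm20440 on the same strand, so reads could be split between these models.

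Penk (ENSMUSG00000045573, chromosome 4, 4060678 to 4065966), the precursor of the opioid enkephalins, was the most abundant of the 10. It was at 2.01, 1.16, 3.33, 3.45 and 3.51 in lumbar and at 5.54, 5.84, 5.78, 6.10 and 5.70 in sacral libraries of M1 to M5. Every sacral library exceeded every lumbar one, and M1 and M2 had the lowest lumbar values. The difference was -3.10 (SE 0.29, adjusted p = 0.00082), or 8.57-fold. Chrna3 (ENSMUSG00000032303, chromosome 9, 54859150 to 54874366) encodes the alpha3 subunit of the ganglionic nicotinic acetylcholine receptor. Its levels were 0.20, -0.81, -0.57, 0.80 and 0.22 in lumbar and 3.05, 2.87, 1.67, 2.51 and 3.59 in sacral libraries. Chrnb4 (ENSMUSG00000035200, 54875963 to 54896351), next to it and encoding the beta4 partner, was at 1.66, 1.80, 1.11, 0.65 and 1.61 and at 3.79, 3.53, 3.11, 3.13 and 4.45. Both genes were highest in the sacral library of M5. The differences were -2.77 (SE 0.27, adjusted p = 0.0009) for Chrna3 and -2.24 (SE 0.17, adjusted p = 0.00074) for Chrnb4.

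Esr1 (ENSMUSG00000019768, chromosome 10, 5340927 to 5734948), the estrogen receptor alpha, was at -1.41, -1.19, -1.04, -0.76 and -0.64 in lumbar and at 1.62, 1.80, 1.44, 1.22 and 1.95 in sacral libraries. These male pairs were among the most uniform of the 10, with differences between -3.02 and -1.97. The mean difference was -2.61 (SE 0.24, adjusted p = 0.00074), or 6.12-fold. The other genes toward sacral DRG were Serpina3c, a serine protease inhibitor (-2.83, SE 0.39), Mrap2, an accessory protein of melanocortin receptors (-2.07, SE 0.30), Gpr83, a G protein-coupled receptor (-1.92, SE 0.28), and Vgf, a secreted neuropeptide precursor (-1.90, SE 0.24). Their adjusted p ran from 0.0017 to 0.0022. Srd5a2, which encodes a steroid 5-alpha-reductase, fell outside the naming rule because 1 lumbar library had no value, and was chosen after its values were seen. It was at -0.76, -2.23, 1.13 and 1.71 in the lumbar libraries of M1, M3, M4 and M5, against 3.69 to 4.49 in the 5 sacral libraries (-4.12, SE 0.45, adjusted p = 0.0014, 4 pairs).

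**Figure D3:**
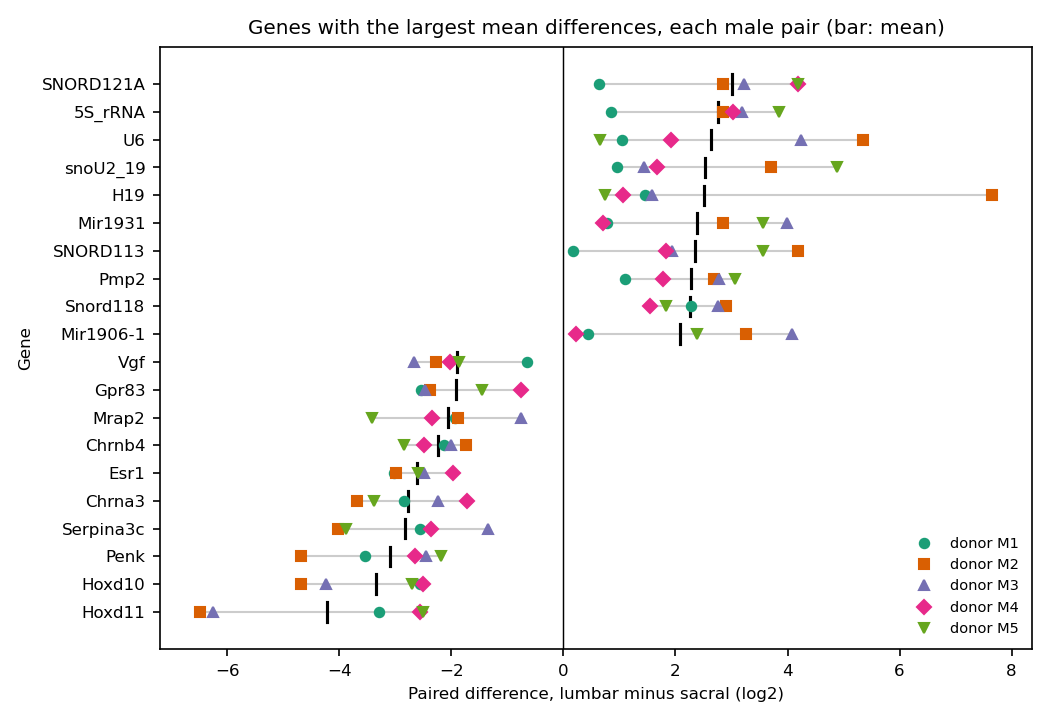
Paired differences (log2, lumbar minus sacral) of the 20 named genes with the largest mean differences, 10 in each direction, with 1 point per male donor, a bar at the mean and a line over the range. The naming rule required 1 sign in all 5 pairs, and the widest range belongs to H19.

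Promoter sequences are shown for the adjacent pair Chrna3 and Chrnb4, both higher in sacral DRG in all 5 pairs. That of Scg2, one of the 3 abundant genes with the smallest adjusted p toward sacral DRG, is also shown. Each runs 5′ to 3′ from 250 bases before to 50 bases after an annotated start in RefSeq on GRCm38.p6, a later build than that of the other coordinates. Letters in capitals mark matches on either strand to TGACGTCA (the cAMP response element), GGGCGG (the GC box) or TATAAA (the TATA box), which do not overlap each other here. Of 32851 promoters of this length in the table, 1.79% held the first, 35.7% the second and 13.6% the third. Of the 26 genes named for size or for adjusted p, 12 had a promoter in the table, 18 promoters in all. Of these 18, 1 held the first motif (that of Scg2), 5 the second and 3 the third.
Chrna3, chr9:55026513-55026812, minus strand: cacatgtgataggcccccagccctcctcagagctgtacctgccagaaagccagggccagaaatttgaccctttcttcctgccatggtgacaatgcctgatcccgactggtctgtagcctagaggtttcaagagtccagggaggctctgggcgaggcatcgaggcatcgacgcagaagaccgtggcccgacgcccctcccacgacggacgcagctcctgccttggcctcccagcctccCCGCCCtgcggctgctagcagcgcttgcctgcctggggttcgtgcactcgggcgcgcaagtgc
Chrnb4, chr9:55048495-55048794, minus strand: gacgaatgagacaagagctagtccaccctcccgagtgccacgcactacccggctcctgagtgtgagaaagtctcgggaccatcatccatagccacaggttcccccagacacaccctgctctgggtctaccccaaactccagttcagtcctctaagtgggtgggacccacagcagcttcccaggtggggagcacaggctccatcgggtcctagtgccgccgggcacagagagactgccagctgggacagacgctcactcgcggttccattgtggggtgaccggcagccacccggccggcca
Scg2, chr1:79439977-79440276, minus strand: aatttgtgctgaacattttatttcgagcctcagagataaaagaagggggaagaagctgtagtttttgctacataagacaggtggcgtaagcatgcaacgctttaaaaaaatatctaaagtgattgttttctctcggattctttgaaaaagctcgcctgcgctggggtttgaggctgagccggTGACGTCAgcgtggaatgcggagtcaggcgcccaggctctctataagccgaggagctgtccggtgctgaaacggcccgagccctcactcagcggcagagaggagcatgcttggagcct
Chrna3 had 1 GC box, starting 13 bases before the start site, Chrnb4 had none of the 3 motifs, and Scg2 had 1 cAMP response element, starting 68 bases before the start site. A match of letters describes the sequence only.

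The posterior Hox list holds paralog groups 9 and above with Hoxc8 and Hoxd8, and the anterior list holds lower groups and Hoxb8. Of 11 posterior Hox genes tested (of 18 listed), 6 were higher in sacral and 2 in lumbar DRG, with 1 in each direction from group 8. Along the Hoxd cluster the mean difference grew with position, from -0.45 for Hoxd8 (SE 0.12, not called without M3, M4 or M5, after quantile normalization or when scaled to reads outside the mitochondrial genome, where it was -0.23) and -1.25 for Hoxd9 (SE 0.17) to -3.34 for Hoxd10 and -4.22 for Hoxd11. Hoxd8, Hoxd9, Hoxc9, Hoxc10 and Hoxb9 were named after their values were seen, to complete this series. In the Hoxc cluster the sign changed with position. Hoxc8 was higher in lumbar DRG (1.74, SE 0.28, adjusted p = 0.0028), Hoxc9 differed by 0.25 (SE 0.32, adjusted p = 0.58), and Hoxc10 was higher in sacral DRG (-0.91, SE 0.12, adjusted p = 0.0018). Hoxc11 had at most 4 reads in any lumbar library, none in that of M2, and 58 to 154 reads in each sacral library (adjusted p = 0.0035, 4 pairs). Hoxb9 went the other way from its Hoxd counterpart (1.65, SE 0.40). Of 14 anterior Hox genes tested, 3 were higher in lumbar DRG and none in sacral (21.4% called, against 28.2% of all genes). These were Hoxb7 (1.82, SE 0.31, adjusted p = 0.0035), Hoxb6 (1.69, SE 0.41) and Hoxc6 (0.69, SE 0.19, called in 2 of the 5 fits without a donor, and at 0.32 and not called when scaled to total reads). In Hoxb7, which shares exons with Hoxb8, lumbar levels of -0.19 to 1.43 did not overlap sacral levels of -1.96 to -0.56.

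Most pan-neuronal markers and most genes of synaptic vesicle release were called higher in sacral DRG. Of 15 pan-neuronal markers, 13 were called higher in sacral DRG, none higher in lumbar, and the median difference was -0.75 against -0.12 for all genes. All 15 were higher in sacral DRG in each of the 5 pairs. Their summed level was 10.46 to 11.08 in lumbar and 11.19 to 11.52 in sacral libraries. Syt1, the calcium sensor of vesicle release, differed by -1.10 (SE 0.13, adjusted p = 0.0013), and Pou4f1, a sensory neuron homeobox factor, by -0.85 (SE 0.14, adjusted p = 0.0033). Of 27 genes of synaptic vesicle release, 23 were higher in sacral (14 when scaled to reads outside the mitochondrial genome) and 1 in lumbar DRG. The vesicle proteins Syp (-0.96, SE 0.11) and Sv2a (-1.21, SE 0.15) and the vesicular glutamate transporter Slc17a6 (-1.17, SE 0.14) were among the 23. The exception was Slc17a7, another vesicular glutamate transporter, which was at 0.37 ± 1.15 in lumbar and -2.25 ± 1.87 in sacral libraries (SD, n = 5). It was higher in lumbar DRG in all 5 pairs (2.62, SE 0.50, adjusted p = 0.005), although the levels overlapped, from 54 to 407 lumbar and 4 to 123 sacral reads. Among abundant genes, the smallest adjusted p toward sacral DRG belonged to Scg2, a secretory granule protein, Ncdn, a neurite outgrowth protein, and Syp (each 0.0013). Scg2 was at 7.29 to 8.03 in lumbar and 8.51 to 8.77 in sacral libraries, and Ncdn at 4.65 to 5.27 and 5.81 to 6.35.

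Of 12 peptidergic nociceptor markers 9 were higher in sacral DRG, and of 17 nonpeptidergic markers 8, with none higher in lumbar DRG in either list. Among all genes, 17.9% were called higher in sacral and 10.3% higher in lumbar DRG. The median differences of these lists were -0.66 and -0.57, against -0.12 for all genes. Across scalings 6 to 11 and 6 to 14 were higher in sacral DRG. The summed level of the peptidergic list, 10.85 to 11.27 in lumbar and 11.01 to 11.41 in sacral libraries, overlapped. Trpv1 itself was at 3.87, 3.68, 3.90, 3.48 and 3.14 in lumbar and 4.76, 4.10, 4.89, 4.40 and 4.94 in sacral libraries of M1 to M5, a difference of -1.0 (SE 0.17, adjusted p = 0.0032). The 2 levels did not overlap. Trpv1 is the gene whose reporter the sort selected, at both levels. Scn11a and Scn10a, the voltage-gated sodium channels Nav1.9 and Nav1.8 of nociceptors, differed by -1.36 (SE 0.16) and -1.04 (SE 0.15). Th, tyrosine hydroxylase of C low-threshold mechanoreceptors, was at 3.52 to 5.22 in lumbar and 5.39 to 6.43 in sacral libraries (-1.70, SE 0.22, adjusted p = 0.0018). Of 16 markers of large myelinated neurons tested, 8 were higher in lumbar and 3 in sacral DRG, and the median was 0.43, whereas the summed level of the list was lower in lumbar DRG by 0.31 on average. The 8 calls became 5, 3, 4 and 4 without M2, M3, M4 or M5, and 3 when scaled to total reads. The 3 became 2, 0 and 1 without M3, M4 or M5, 1 after quantile normalization and 0 when scaled to reads outside the mitochondrial genome. Pvalb, parvalbumin of proprioceptors, had at most 94 reads (2.32, SE 0.58, adjusted p = 0.017, 4 pairs, not called without M5), and Vsnl1, a neuronal calcium sensor, differed by 0.74 (SE 0.15). Nefh, the heavy neurofilament, was higher in lumbar DRG in all 5 pairs (0.55, SE 0.14, adjusted p = 0.017), and was not called without M3 or when scaled to total reads (0.18, adjusted p = 0.33).

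Receptors and channels of the study's curated sets were described next. The study curated these sets for their relevance to nociceptor signaling, and they were taken up here with results of these data known, so their direction is not independent evidence. Calcium channels had 13 of 18 higher in sacral and 1 in lumbar DRG, led by the pore subunits Cacna1e (-1.38, SE 0.26), Cacna1b (-1.09, SE 0.16) and Cacna1h (-1.07, SE 0.21) and by Cacng3 (-1.01, SE 0.20). Sodium channels had 6 of 10 higher in sacral DRG and none in lumbar, with Scn9a (Nav1.7) at -1.16 (SE 0.16). TRP channels had 7 of 14 higher in sacral DRG and none in lumbar. Trpm2, a redox-sensitive cation channel, led them at -1.41 (SE 0.18, adjusted p = 0.0017). Potassium channels had 19 of 52 higher in sacral and 5 in lumbar DRG, and 12 and 3 without M5. Scaling to total reads gave 35 and 3, and scaling to reads outside the mitochondrial genome gave 9 and 9. Kcnn4, an intermediate-conductance calcium-activated channel, was at 2.01 to 2.98 in lumbar and 0.09 to 1.16 in sacral libraries (1.77, SE 0.24, adjusted p = 0.0018), while Kcnn2, of the same family, was higher in sacral DRG (-1.02, SE 0.23). Chloride channels had 3 of 10 higher in sacral and 2 in lumbar DRG, against 17.9% and 10.3% of all genes. The 3 and 2 became 5 and 2 when scaled to total reads, and 2 and 3 when scaled to reads outside the mitochondrial genome. Without M3 the sacral count was 2, and without M5 the lumbar count was 1. Ttyh2 was at 0.88 (SE 0.22, not called without M5) and Clcn6 at -0.62 (SE 0.12).

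Ligand-gated channels had 25 of 43 higher in sacral (16 without M4) and 4 in lumbar DRG, with a median of -0.60. Gabrg3, a GABA-A receptor subunit, differed by -1.51 (SE 0.26). Of 9 nicotinic and serotonin-gated channel genes tested, 6 were higher in sacral DRG and none in lumbar. Beside Chrna3 and Chrnb4 these included Htr3a, the pore subunit of the serotonin-gated channel, at 1.44 to 3.15 in lumbar and 3.85 to 4.88 in sacral libraries (-1.66, SE 0.20, adjusted p = 0.0015). Chrnb2 differed by -0.98 (SE 0.18). G protein-coupled receptors had 22 of 50 higher in sacral and 3 in lumbar DRG (2, 2 and 1 in lumbar without M2, M3 or M4). These counts were 35 and 0 when scaled to total reads, and 16 and 5 when scaled to reads outside the mitochondrial genome. Among these receptors were Drd3, a dopamine receptor with 8 to 41 lumbar and 47 to 152 sacral reads (-2.17, SE 0.48), Prokr2, a prokineticin receptor (-1.58, SE 0.32), and Sstr4, a somatostatin receptor (-1.45, SE 0.23). Of 8 neurotrophic factor receptors, 4 were higher in sacral DRG. They included Ngfr, the p75 receptor (-1.03, SE 0.14), Ret, the GDNF family co-receptor (-1.06, SE 0.15), and Gfra3, the artemin receptor (-0.84, SE 0.15). Ntrk2, the BDNF receptor, was the only one higher in lumbar DRG (0.83, SE 0.15, adjusted p = 0.0043). Its ligand Bdnf was higher in sacral DRG (-1.27, SE 0.18, adjusted p = 0.002) and was the 1 called of 2 neurotrophic factors tested.

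Of 13 neuropeptide precursors tested (of 23), 5 were higher in sacral DRG, led by Penk and Bdnf and followed by Gal, galanin (-1.06, SE 0.19). The 5 became 7 without M5 and 10 when scaled to total reads. In both directions together 46.2% of the list was called, against 28.2% of all genes. Edn3, endothelin 3, was the only one of the 13 called higher in lumbar DRG. It had 65 to 177 reads in lumbar and 1 to 48 reads in sacral libraries (adjusted p = 0.014). Among steroid hormone receptors, Pgr, the progesterone receptor, was higher in sacral DRG beside Esr1. It was at -2.93 to -1.33 in lumbar and at -0.60 to -0.19 in sacral libraries, without overlap (-2.06, SE 0.45, adjusted p = 0.0088). Esrrg, an orphan receptor related to the estrogen receptors, was higher in lumbar DRG (2.80, SE 0.68, adjusted p = 0.015, 4 pairs, not called without M3). Of 48 transcription factors, 16 were higher in sacral and 13 in lumbar DRG. The 13 became 8, 6 and 8 without M2, M3 or M4, and across scalings 10 to 25 were higher in sacral and 7 to 16 in lumbar DRG. Eya2, a transcriptional co-activator, was at 2.91 (SE 0.64), from 72 to 288 lumbar and 6 to 106 sacral reads.

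**Figure D4:**
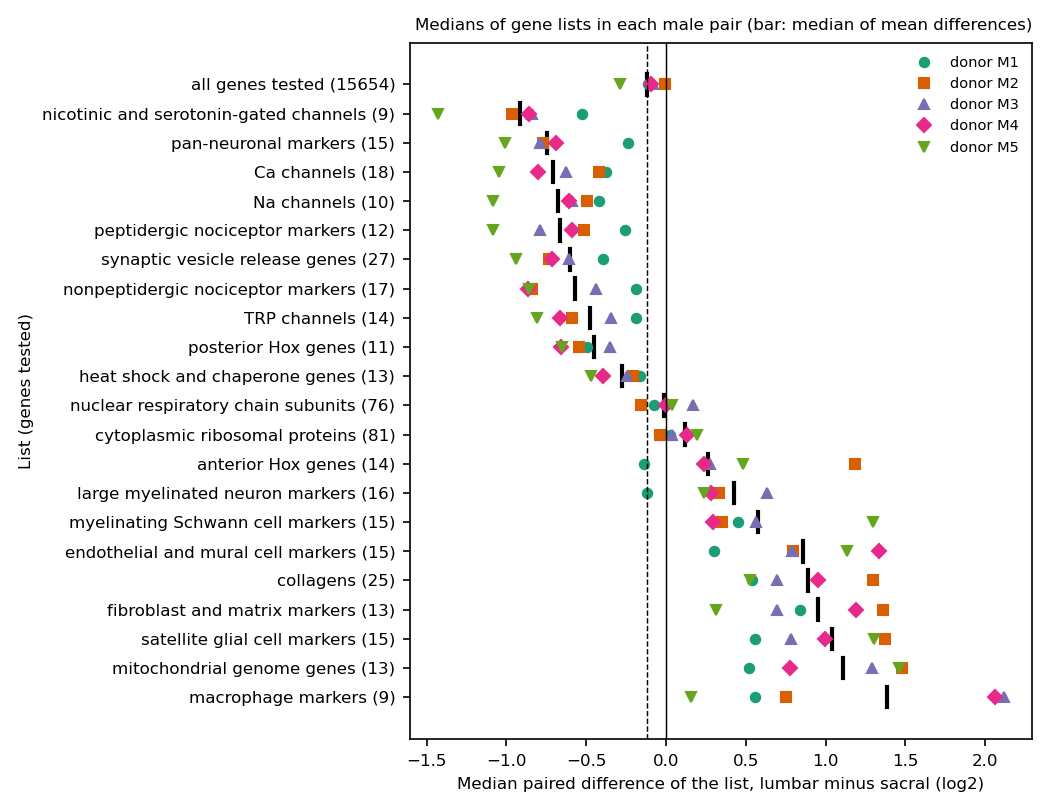
Median paired difference (log2, lumbar minus sacral) of 21 gene lists and of all genes in each male donor, with the number of genes tested in brackets and a bar at the median of the mean differences. The lists of pan-neuronal and nociceptor markers, vesicle release genes and nicotinic, Ca, Na and TRP channels lie left of the all-gene median (dashed line, -0.12) in all 5 donors, with M1 closest to 0 in each, and glial, vascular, matrix and mitochondrial genome lists lie right of it.

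Toward lumbar DRG, 9 of the 10 leading named genes were noncoding RNAs, and all of these but H19 had at most 164 reads in any library. SNORD121A (3.02, SE 0.43) had 10 to 42 reads in lumbar and 2 to 10 in sacral libraries. A 5S_rRNA gene (ENSMUSG00000088004; 2.75, SE 0.40) had 7 to 16 and 1 to 4 reads, and a U6 gene (ENSMUSG00000087938; 2.64, SE 0.59) had 6 to 50 and 1 to 15. These symbols belong to many near-identical copies, so reads on a single copy are uncertain. The others were snoU2_19 (2.53, SE 0.48), Mir1931 (2.38, SE 0.49), a SNORD113 gene (ENSMUSG00000088294; 2.34, SE 0.44) and Mir1906-1 (2.08, SE 0.48), which lies in an exon of Meg3. Snord118, the U8 snoRNA of ribosomal RNA maturation, had 33 to 90 lumbar and 7 to 28 sacral reads and the lowest adjusted p of the 10 (2.26, SE 0.21, adjusted p = 0.00074). H19, an imprinted long noncoding RNA, was at 1.64 to 3.99 in lumbar libraries and at 1.59, -4.51, 2.40, 2.18 and 0.90 in sacral libraries of M1 to M5. The value of M2, from 6 reads, set most of its mean difference of 2.50 (SE 0.81, adjusted p = 0.04), and H19 was called in 3 of the 5 fits that left out a donor (not without M3 or M5). Pmp2, a fatty acid binding protein of peripheral myelin, was the 1 protein-coding gene among the 10. It was at 1.0, 2.30, 2.06, 2.12 and 1.24 in lumbar and at -0.10, -0.39, -0.72, 0.34 and -1.82 in sacral libraries, without overlap (2.28, SE 0.29, adjusted p = 0.0017).

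Among abundant genes, Sepp1 (selenoprotein P), mt-Co3 (cytochrome oxidase subunit 3) and mt-Td (a mitochondrial tRNA) had the smallest adjusted p toward lumbar DRG. Sepp1 was at 7.65 to 8.75 in lumbar and 6.71 to 7.12 in sacral libraries (1.35, SE 0.14, adjusted p = 0.0011). All 13 protein-coding genes of the mitochondrial genome were higher in lumbar DRG in every pair and all 13 were called, with a median difference of 1.11. Their medians per donor ran from 0.52 in M1 to 1.48 in M2. mt-Co1, the most abundant cytochrome oxidase subunit, was at 13.89, 14.78, 14.58, 14.44 and 14.18 in lumbar and at 13.34, 13.07, 13.11, 13.57 and 12.72 in sacral libraries (1.21, SE 0.25, adjusted p = 0.0068). No lumbar value of mt-Co1 was below a sacral one, but after quantile normalization it differed by 0.35 (adjusted p = 0.11). In that scaling 8 of the 13 were called and their median was 0.44. mt-Co3 and mt-Atp6 share bases with a neighbour and differed by 1.21 (SE 0.11) and 1.23 (SE 0.14), and mt-Td by 1.31 (SE 0.13). Of 76 respiratory chain subunits encoded in the nucleus, 10 were higher in sacral and 4 in lumbar DRG (18.4%, against 28.2% of all genes), and the median was -0.01. Without M2, M3, M4 or M5 the 10 became 5, 4, 4 and 5, and the 4 became 7 without M1 and 1 without M3. Across scalings 2 to 37 were higher in sacral and 0 to 20 in lumbar DRG. Ndufv1 of complex I (-0.66, SE 0.11) and Atp5a1 of the ATP synthase (-0.64, SE 0.10) were higher in sacral DRG, and Atp5e, a small subunit of the same enzyme, in lumbar DRG (0.58, SE 0.12).

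Satellite glial cells wrap the cell bodies of DRG neurons. All 15 of their markers were called higher in lumbar DRG and all were higher in lumbar DRG in each of the 5 pairs, with a median of 1.04. Fabp7, a fatty acid binding protein of these cells, was at 9.22, 10.38, 8.75, 9.99 and 9.86 in lumbar and 8.44, 8.38, 7.61, 8.96 and 8.18 in sacral libraries of M1 to M5. The levels overlapped between donors but not within any pair (1.33, SE 0.17, adjusted p = 0.0018). Sox10, a glial transcription factor, differed by 1.49 (SE 0.21), and Kcnj10, the inward-rectifier potassium channel of these cells, by 1.25 (SE 0.17). The list's summed level was 10.92 to 11.96 in lumbar and 10.14 to 10.86 in sacral libraries, so none of these libraries was free of glial transcripts.

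Markers of other non-neuronal cells leaned the same way. Of 15 myelinating Schwann cell markers 8 were higher in lumbar DRG and none in sacral (2 in lumbar when scaled to total reads), with Cldn19 at 1.20 (SE 0.24), Mal at 0.97 (SE 0.12) and Mbp at 0.76 (SE 0.17). Of 15 endothelial and mural cell markers 12 were higher in lumbar DRG (7 when scaled to total reads) and 1 in sacral, with Cldn5 at 1.39 (SE 0.27) and Ly6c1 at 1.34 (SE 0.15). The summed level of that list, 7.45 to 8.00 in lumbar and 7.24 to 7.88 in sacral libraries, overlapped. Of 13 fibroblast and matrix markers 8 were higher in lumbar DRG, led by Apod (1.56, SE 0.27) and Islr (1.53, SE 0.21). Collagens had 16 of 25 higher in lumbar DRG and 1 in sacral, among them Col5a3 (1.37, SE 0.22) and Col4a2 (1.26, SE 0.17), which shares exon bases with Col4a1 on the other strand. Macrophage markers were low, and 9 of 16 were tested. Of these, 4 were higher in lumbar DRG (2 without M3, 2 after quantile normalization), among them Ctss, cathepsin S (2.86, SE 0.77, 4 pairs, not called without M3 or M4), and Mrc1, the mannose receptor (1.92, SE 0.40). The macrophage sum was 3.56 to 5.80 in lumbar and 2.89 to 3.68 in sacral libraries. Of 11 red cell and neutrophil transcripts, 5 were tested and 4 globin genes, which are near-identical in pairs so that reads could be split, were called higher in lumbar DRG. Without M2, M3, M4 or M5 none of this list was called (0), and without M1 5 were. Hbb-b1 differed by -0.54 in M1 and by 3.78 in M5. The list's summed level was higher in sacral DRG in M1 (a difference of -3.15) and higher in lumbar DRG in the other 4 donors.

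Stress, translation and guidance genes gave smaller or mixed differences. Immediate early genes had 7 of 21 higher in lumbar and 3 in sacral DRG (47.6% called, against 28.2% of all genes). These counts were 3 and 6 when scaled to total reads, and 11 and 2 after quantile normalization. Members higher in lumbar DRG included Klf2 (1.20, SE 0.30, not called without M3) and Ier2 (0.95, SE 0.16). Heat shock and chaperone genes had 6 of 13 higher in sacral (3 without M5) and 2 in lumbar DRG. Across scalings 3 to 9 were higher in sacral and 0 to 2 in lumbar DRG, and the median, -0.27 here, ran from -0.64 to -0.05. Bag3, a co-chaperone, was at -0.73 (SE 0.12), Hsp90ab1, a constitutive chaperone, at -0.65 (SE 0.13), and Hspa1b, an inducible one, at 0.75 (SE 0.18, not called when scaled to total reads, where it was 0.39). Of 81 cytoplasmic ribosomal protein genes, 71 were not called, 9 were higher in lumbar and 1 in sacral DRG, 12.3% called against 28.2% of all genes. Rpl23a was at 0.71 (SE 0.19) and Rpl10a at 0.65 (SE 0.17), called in 2 and 3 of the 5 fits without a donor. The 9 lumbar calls became 4, 0, 2 and 3 without M2, M3, M4 or M5. Genes of this family have many processed copies, which limits what a unique read can assign. Under the other 5 scalings the family's calls ran from 0 to 31 higher in sacral and from 0 to 20 higher in lumbar DRG, and its median, 0.12 here, from -0.25 to 0.34. Semaphorins, plexins and neuropilins, which guide axons, had 8 of 28 higher in sacral and 7 in lumbar DRG (53.6% called). Across scalings 7 to 13 were higher in sacral and 3 to 8 in lumbar DRG. Plxnb3 was at 1.09 (SE 0.19) and Sema4f at -0.94 (SE 0.15). Of 13 ephrins and Eph receptors, 2 were higher in lumbar DRG (15.4% called against 28.2% of all genes, 1 without M2, M3, M4 or M5 and 1 to 4 across scalings), with Ephb4 at 1.86 (SE 0.33). Medians of 8 further lists changed sign under at least 1 of the scalings named above. Those of anterior Hox genes ran from -0.10 to 0.49, of immediate early genes from -0.20 to 0.39 and of nuclear respiratory chain subunits from -0.38 to 0.21. Those of semaphorins ran from -0.48 to 0.11, of ephrins from -0.26 to 0.33, of chloride channels from -0.52 to 0.07 and of transcription factors from -0.49 to 0.10. That of the 4 Y chromosome genes, none of them called here (0), ran from -0.45 to 0.14, and all 4 were called higher in sacral DRG when scaled to total reads.

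Some well-expressed genes differed widely between donors. Of genes with a mean of at least 3 log2 RPKM at both levels, the largest SD of the paired difference belonged to SNORD75, a second SNORD113 gene (ENSMUSG00000064452), the miRNA gene AC125540.1, Snord14e and Snhg11. SNORD75 lies in an exon of Gas5 and Snord14e in one of Hspa8. SNORD75 was lower in sacral than in lumbar DRG by 4.23 in M5, while its differences in M1 to M4 lay between -0.40 and 0.45, and it was not called (0.91, SE 0.53, adjusted p = 0.22). AC125540.1, in an exon of Tnrc6b, was not called either (-0.32, SE 0.38, adjusted p = 0.55). Snord14e (1.75, SE 0.32) and Snhg11 (1.51, SE 0.31) were higher in lumbar DRG. The SNORD113 gene (1.65, SE 0.47) was higher in lumbar DRG in 3 of 5 pairs, with -0.31 in M1 and -0.04 in M4, and was called in 2 of the 5 fits without a donor.

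The female pairs are the most similar data, with other donors and the same levels. Among 15397 genes tested there in the same way, 3631 (23.6%) were called. The 2606 genes called in both sexes in the same direction were 59.1% of the male calls and 71.8% of the female calls, and 1 gene was called in opposite directions. Of male calls tested in both sexes, 98.1% had the same sign in females. The mitochondrial share differed by 20.9 points on average in female pairs against 22.7 in male pairs (exact permutation test, two-sided p = 0.72). Whether a level difference itself differed between the sexes was tested for 15062 genes over all 20 libraries. No gene (0%) passed an adjusted p of 0.05 in limma, where the lowest was 0.237, and 594 genes had an unadjusted p under 0.05. The 5 genes with the smallest p were Htr1f, Nefh, Thbs1, SNORA42 and Il31ra. Htr1f, a serotonin receptor, was at -0.69, -1.39, -0.85, -0.81 and -1.09 in male pairs M1 to M5, and at 0.45, -0.21, 1.33, 1.09 and 0.22 in female pairs. Its male minus female difference was -1.54 (SE 0.27, adjusted p = 0.237). Il31ra, the receptor of the itch cytokine IL-31, was at -0.76, -1.12, -0.56, -0.76 and -1.19 in male pairs and at 0.39, -0.44, 1.06, 0.42 and 0.37 in female pairs, a difference of -1.24 (SE 0.23). Nefh was positive in all 5 male pairs and negative in all 5 female pairs (1.04, SE 0.19). Thbs1, thrombospondin 1, was at 0.29 in males and -1.08 in females, and SNORA42, with at most 22 reads in a male library, at -0.54 over 4 male and 3.51 over 3 female pairs. All 5 had an adjusted p of 0.237.

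**Figure D5:**
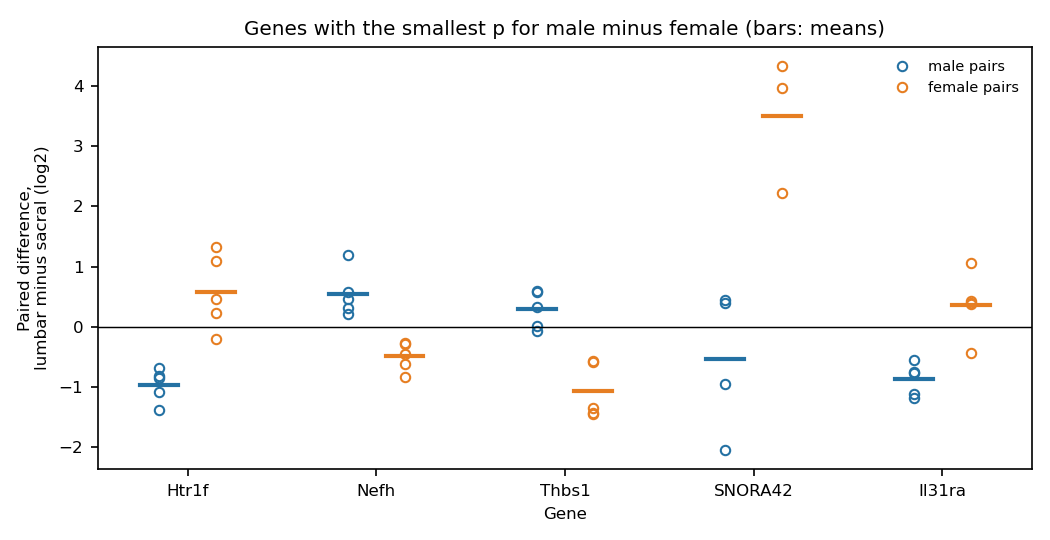
Paired differences (log2, lumbar minus sacral) of the 5 genes with the smallest p for male minus female, with 1 circle per donor and a bar at the mean of each sex. Male and female circles of Htr1f, Nefh, Thbs1, Il31ra and SNORA42 do not overlap, a gap favoured by choosing the genes for this p. None of the 5 genes passed the adjusted threshold (limma, adjusted p = 0.237 for each).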

How the data were processed

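Cells sorted to enrich Trpv1 neurons were measured by RNA-seq after RNA amplification. According to the submitters' processing notes and the study's methods, the authors aligned reads with Subread (versions 1.18 and 1.20.6 are listed) to mm9, counted unique reads per Ensembl gene with featureCounts, and applied TMM scaling and voom (edgeR 3.12.1, limma 3.26.9, R 3.2.1 and 3.2.2). The use of strand in counting is not given in the sources used here. The deposited values are log2 RPKM. Their median is identical (0.93) in each of the 20 libraries, an alignment on medians that is not described in the sources used here. Of 432951 values, 99.8% were whole reads within 0.01 when worked back through gene length, and these reads are the depths given.

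Paired differences were fitted with limma 3.58.1 (R 4.3.3, statmod 1.5.0) on the deposited log2 RPKM, with donor as a fixed effect, variances moderated along a trend with mean level, and p adjusted over all tested genes (Benjamini-Hochberg), called at 0.05. Empty cells were treated as missing, so a gene without a value in a library lost that pair, and n is given where below 5. All adjusted p are from this fit. Tables and figures used Python 3.11.15, pandas 2.3.3, numpy 2.4.6 and matplotlib 3.10.9. The code was tested on simulated data.

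Pairing came from the animal numbers in the titles. Deviations of the lumbar and sacral library of a donor from their level means correlated at 0.02 in M1 to 0.25 in M3 across genes (mean 0.14), against -0.04 between donors. Whether a donor is 1 animal or a pool of 2 is not given in the sources used here, so p-values measure the spread between these pairs.

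Named genes were the 10 with the largest difference in each direction (called, the same sign in 5 pairs, a value in all 10 libraries, a mean of at least 1 log2 RPKM at the higher level and no clone or predicted-gene name), the 3 with the smallest adjusted p in each direction at a mean of at least 5, up to 4 per gene list, the 5 with the most variable paired difference, the 5 with the smallest p for male minus female, and label checks. The text names 108 of the 148 genes so chosen and 6 others, and 1 item is not reported here. Members and lists were chosen with earlier results of these data known, and 10 lists are the study's own curated sets. Gene coordinates are mm9. Of the named genes, 21 share exon bases with another gene, 13 of them on the same strand. Alternatives covered scaling, filters, pseudocounts of 1 and 0.1, variance models, covariates, the donor term and each donor left out.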

Additional observations from a re-analysis of the deposited data

Results flagged for a closer look

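In 5 of 110 groups of 5 paired differences examined, 1 donor lay far from the other 4. In groups of random values this happens in about 1 in 20. The 5 genes here were named from these same values, SNORD75 for its variable differences, so that rate does not apply to them directly. H19 was at 7.66 in M2 and at 0.742 to 1.59 in the others. Edn3 was at 7.98 in M2, whose sacral library had 1 read, and at 2.06 to 3.75 in the others. Mrc1, the mannose receptor of macrophages, was at 0.728 in M5 and at 2.06 to 2.54 in the others. Syp was at -0.579 in M1 and at -1.11 to -1.0 in the others. SNORD75 was at 4.23 in M5 and at -0.40 to 0.448 in the others.

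Nefh had opposite directions in the sexes. It was higher in lumbar DRG in all 5 male pairs and higher in sacral DRG in all 5 female pairs, with a male minus female difference of 1.04 (limma, adjusted p = 0.237). This pattern of signs occurred in 11 of 15113 genes.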

How the results depend on the processing

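Among the 4412 calls, 1772 passed an adjusted p of 0.01. Scaling to total reads gave 8703 calls, of which 90.0% were higher in sacral DRG. That share was 50.8% after quantile normalization, 47.2% after trimmed mean centring, 50.2% with voom and TMM, and 31.0% when scaled to reads outside the mitochondrial genome, an alternative added after seeing the data. Leaving out 1 donor gave 2714 to 4537 calls with 60.4% to 67.6% higher in sacral DRG. The lowest counts came without M3, M4 or M5. Without the replicate block there were 3565 calls and with the block as a random effect 4717. Without the block, SNORA42 moved from -0.54 to 0.11. Other filters, pseudocounts, weights and variance models gave 3137 to 4942 calls. The male minus female test gave 0 calls in every fit run, with the donor block or without it.

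With the mitochondrial share as a covariate no gene was called (0), nor with the glial marker mean (0). Neither covariate overlaps between the levels, and both leave 3 residual degrees of freedom. Sox10 is part of the glial mean and mt-Co1 is part of the mitochondrial share, so each was adjusted for a measure that contains it. Of the 4412 genes called in the main test, 2112 had the opposite sign with the mitochondrial share and 1210 with the glial mean. The sign changes that follow are those among genes whose differences are printed, and their cause was not tested. With the mitochondrial share these were Sema4f 0.27, Col5a3 -0.16, Eya2 -0.16, Hsp90ab1 0.0912, Gfra3 0.49, Gal 0.56, Chrnb2 0.16, Ret 0.27, Slc17a6 0.0811, Bag3 0.0841, Sox10 -0.40, Scn11a 0.00049, Scn10a 0.26, Ttyh2 -0.63, Snhg11 -1.30, Hbb-b1 -2.52, Pmp2 -0.28, Vsnl1 -0.0931, Kcnn2 0.0128, Klf2 -0.0034, Ntrk2 -0.0716, mt-Co1 -0.16, the SNORD113 genes -3.35 and -1.97, Snord14e -0.33, Cldn19 -0.50, snoU2_19 -1.66, SNORD75 -3.47, Mir1906-1 -1.92, 5S_rRNA -0.53, Mir1931 -1.85, SNORD121A -0.43 and AC125540.1 1.43. With the glial mean they were H19 -1.73, Eya2 -0.64, Gfra3 0.23, Gal 0.16, Edn3 -0.73, Chrnb2 0.0949, Sox10 -0.13, Ttyh2 -0.35, Snhg11 -0.64, Hbb-b1 -1.25, Ntrk2 -0.16, the SNORD113 genes -1.69 and -1.62, snoU2_19 -1.31, SNORD75 -1.89, Mir1906-1 -0.0235, SNORA42 0.0634, Hspa1b -0.35 and AC125540.1 0.27. Scaled to total reads, Hoxc9 was at -0.12 and Thbs1 at -0.0817. Without 1 donor, AC125540.1 ran from -0.68 to 0.19. Depth limits the named small RNAs and Hoxc11, Hoxd11, Hoxb6, Hoxb9, Serpina3c, Srd5a2, H19, Pmp2, Slc17a7, Pvalb, Edn3, Esrrg, Pgr, Ctss, Hbb-b1, Drd3 and Eya2, which had 32 or fewer reads in at least 1 library.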
